A study of Mus musculus with 2 samples.

Results

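The genes described here are 33 genes that mark macrophages and monocytes, dendritic cells, granulocytes or mast cells, taken by name from a table of 55246 loci. All 33 were found in the table. They comprised 21 macrophage and monocyte genes, 4 dendritic cell genes, 4 granulocyte genes and 4 mast cell genes, with Itgax, which macrophages share with dendritic cells, counted among the first. The libraries came from regulatory T cells (Treg cells) of the colon lamina propria, the connective tissue beneath the gut epithelium, of female mice. The genotypes were wild type (WT) and Exon2KO, written Foxp3∆2 in the series title, in which Foxp3, the transcription factor that defines Treg cells, lacks exon 2. Each genotype had 1 library, so no value had a replicate and no difference could be set against a spread between mice. Mouse age, the sorting scheme, whether mice were pooled, and whether the allele was made in 1 line or several are not given in the sources used here.

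Macrophages and monocytes are phagocytes that engulf debris and microbes, sense them through surface receptors such as CD14, and coat targets with complement such as C1q. Dendritic cells carry antigen to T cells, granulocytes are short-lived killers of microbes, and mast cells release granule proteases after IgE binds their high-affinity receptor. Acod1 (aconitate decarboxylase 1) is best known as a gene of activated macrophages. It encodes a mitochondrial enzyme that turns cis-aconitate of the citric acid cycle into itaconate, a metabolite that inhibits succinate dehydrogenase.

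Gene-assigned reads numbered 16281133 in WT and 15412425 in Exon2KO. Foxp3 had 6991 reads in WT and 20946 in Exon2KO, and a count over the whole gene does not test the loss of 1 exon. Treg cell RNA was present in both libraries: the 16 T cell genes of a fixed list made up 1.37% of WT reads and 1.70% of Exon2KO reads, led by Ctla4 with 79358 and 132229 reads. Without Ctla4 they made up 0.887% and 0.841%, and 11 of the 16 had ratios below 0, with a median log2 ratio of -0.28, so the sum used below as an alternative scaling rests on Ctla4. RNA of other lamina propria cells was present too, with 8 B and plasma cell genes at 0.767% of the reads in each library. The 8 epithelial genes summed to 0.00759% of WT reads and 0.0264% of Exon2KO reads, with 5 of them called higher in Exon2KO, or 3 higher and Muc2 lower when scaled to the T cell genes, and 2 higher (Krt8 and Krt19) with the assumed spread of 0.4 described below. Krt8 and Krt19 held most of the Exon2KO reads, with 1604 and 1430, while Epcam had 782 reads in WT and 609 in Exon2KO. The 8 stromal genes held 0.00722% and 0.00725%, though Cdh5 (0 and 15 reads) and Lum (6 and 20) were called higher. The 5 red blood cell genes had 7 and 40 reads, with Hba-a1 (1 and 30) called higher. Cdh5, Lum and Hba-a1 each reached the 10 reads needed for the test through Exon2KO alone. The part of these cell types in the values below was not tested.

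The promoter window of Acod1, the member with the largest difference, is shown with the matches to 6 short motifs, searched on both strands, of factors that act in myeloid cells or T cells. Promoter windows of 250 bases before to 50 after the gene start were taken from RefSeq (GRCm38.p6), where 28 of the 33 genes matched by symbol. The capitals mark the matches, first AGGAAGT (ETS factors such as PU.1) and then GGANNNTCC (NF-kB type), which do not overlap each other.
Acod1 promoter, chr14:103046762-103047061, plus strand: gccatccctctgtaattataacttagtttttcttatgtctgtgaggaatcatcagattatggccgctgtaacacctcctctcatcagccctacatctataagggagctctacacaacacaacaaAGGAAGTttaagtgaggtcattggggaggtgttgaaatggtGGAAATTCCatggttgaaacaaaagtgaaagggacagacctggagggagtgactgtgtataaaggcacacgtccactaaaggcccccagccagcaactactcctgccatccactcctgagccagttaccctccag
The ETS match begins at position -126 and the NF-kB type match at -85, counted from the RefSeq start. AGGAAGT was in 9.35% of all 32851 promoter windows of this length and in those of 10 of the 28 matched members. GGANNNTCC was in 8.62% of all windows and in those of 6 members. Of the other motifs searched, TTGCNNAA (C/EBP), TGANTCA (AP-1), the interferon-stimulated element and TGTTTAC (forkhead) did not occur in this window of Acod1, and were in 10.8%, 7.81%, 3.44% and 3.65% of all windows. A match is a description of letters and not of a bound site.

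Lyz1 and Lyz2 encode lysozymes that cleave bacterial cell walls, Lyz1 mainly in Paneth cells and Lyz2 in macrophages. The second exon of both genes, which is coding throughout, is shown because the ratios of the 2 genes differed while their sequences are near-identical. Capitals mark the bases that differ.
Lyz1, chr10:117291029-117291193, minus strand: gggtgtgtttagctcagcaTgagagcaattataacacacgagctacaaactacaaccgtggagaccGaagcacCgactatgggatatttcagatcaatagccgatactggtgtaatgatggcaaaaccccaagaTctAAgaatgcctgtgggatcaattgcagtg
Lyz2, chr10:117280641-117280805, minus strand: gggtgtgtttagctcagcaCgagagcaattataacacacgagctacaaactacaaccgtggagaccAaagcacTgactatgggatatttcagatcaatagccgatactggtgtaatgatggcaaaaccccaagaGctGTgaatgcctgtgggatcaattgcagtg
Of the 165 bases 6 differed, an identity of 96.4%, and the longest identical run was 60 bases. Of all 50-base stretches of the Lyz1 transcript (GENCODE M21) 16.1% also occurred in Lyz2. Reads no longer than such stretches cannot be assigned to either gene by sequence. The read length is not given in the sources used here, so how far the division between the 2 counts is uncertain is not known. The shared 50-base stretches were 66.3% for Itgam, all with the overlapping gene model Gm49368, 10.5% for Csf3r, shared with many genes, 9.58% for Fcgr3, shared with Fcgr2b, and 8.02% for Itgax, shared with Itgad. The counts of these genes carry the same doubt.

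Levels were compared between genes by the authors' FPKM values, which divide reads by gene length and library size. In WT the highest level among the 33 genes was that of Cebpb (135 FPKM), a transcription factor of myeloid cells that many other cells also express. Acod1 was next at 84.1 FPKM, at or above 96.25% of the values of all loci listed above 0. Below them came Lyz2 (15.3), the lipoprotein gene Apoe (9.88), the lysosomal protein gene Cd68 (8.47) and Cd14 (4.92). Other macrophage genes stood lower and at unequal levels, with C1qb at 3.03, Fcgr3 at 1.571, C1qa at 1.28 and C1qc at 1.215 FPKM in WT. Csf1r, the receptor for the growth factor that macrophages need to survive, was at 0.182 FPKM in WT, and Adgre1, which encodes the F4/80 antigen, at 0.0196. In Exon2KO the order of the other leading genes was close to this, with Cebpb at 116 FPKM, Lyz2 at 19.3, Cd68 at 12.2, Apoe at 7.85 and Cd14 at 4.64. Acod1 stood eighth there, at 2.30 FPKM.

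**Figure D1:**
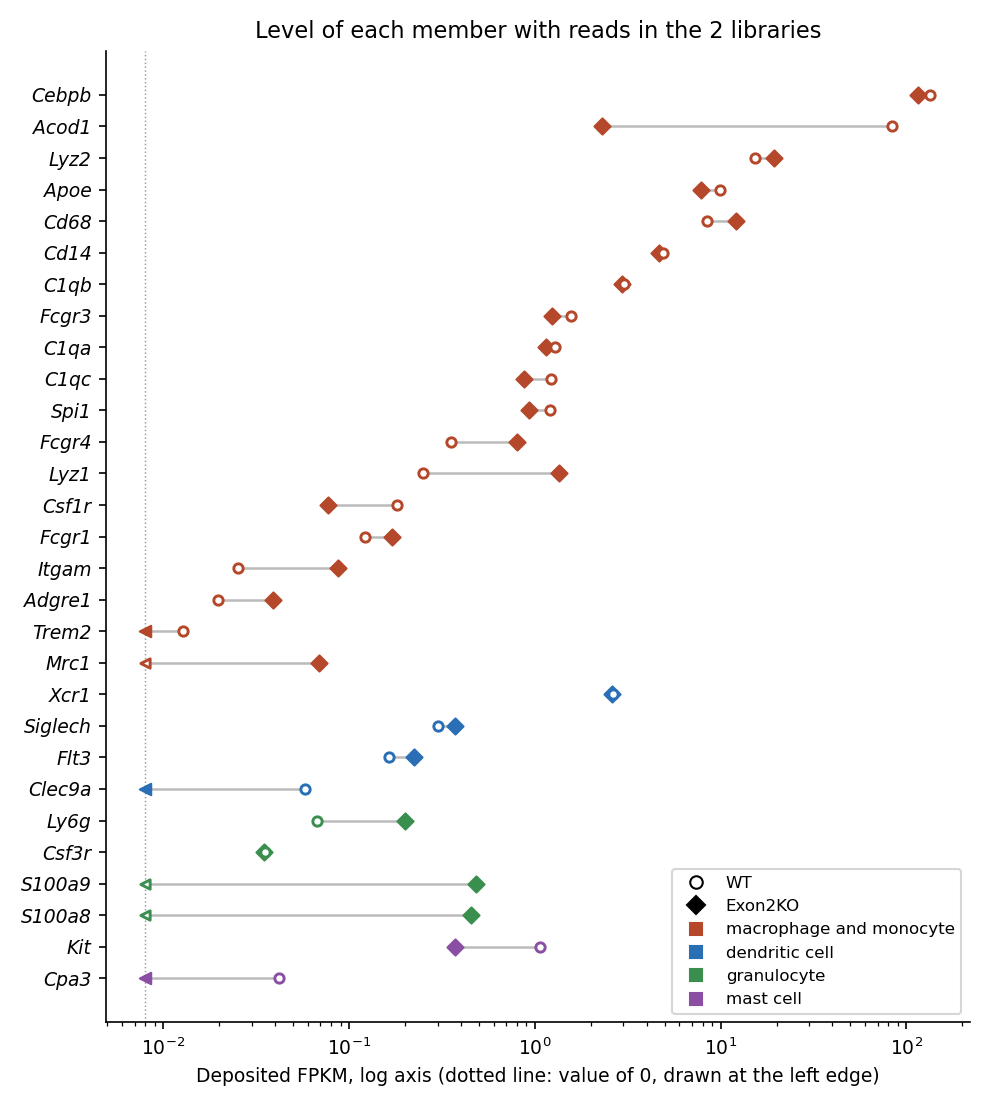
Deposited FPKM (log axis) of the 29 members with a read in either library, in WT (open circles) and Exon2KO (diamonds), coloured by cell class and joined by a grey line; triangles on the dotted line stand for 0. Acod1 moved from 84.1 to 2.30 FPKM while Cebpb, Lyz2, Apoe, Cd68 and Cd14 stayed close to their WT level.

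Reads were then compared between the libraries after TMM scaling, a correction of library size by the trimmed mean of gene ratios. A gene was tested when it had at least 10 reads over both libraries, and called when its reads differed at least 2-fold with an adjusted p-value below 0.05 in the exact binomial test. That test sets 1 library against the other, not genotype against genotype. Its intervals cover counting error only, since 1 library per genotype leaves no spread between mice. Copies of 1 molecule cannot be recognised without molecular identifiers, so the intervals may be too narrow even for counting error. Of the 33 members 19 were tested, 2 were called lower in Exon2KO (Acod1 and Kit), 1 was called higher (Lyz1) and 16 were not called. Among all 17363 tested genes 6.61% were called lower and 7.2% higher. The members' count was thus near that background in both directions. Their median log2 ratio was -0.10, against 0.0035 for all tested genes, and turned to 0.006 without scaling factors, which moved the median of all tested genes to 0.11. Past 2-fold with the prior count, and without regard to the test, lay Acod1, Kit and Csf1r on the lower side and Lyz1 on the higher side, where 8.14% and 9.38% of all tested genes lay. Fcgr4 lay just short of it, and was 2.24-fold higher without the prior count.

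Acod1 (ENSMUSG00000022126, chromosome 14, 103046977 to 103056573, plus strand, GRCm38) had 3478 reads in WT and 96 in Exon2KO, or 221.6 and 6.004 CPM after scaling. The gene fell by 5.18 on the log2 scale, with a 95% interval from -5.51 to -4.91, and was 36.9-fold lower by its scaled reads without the prior count. Its ratio was the lowest of 2849 well-covered protein-coding genes, those that reached 1000 reads in WT or Exon2KO, and stood at place 2 of the 2992 genes of every biotype that did. The next was Gzma, a cytotoxic granule protease, with 5153 and 164 reads (-4.98, -5.23 to -4.78), whose interval overlapped that of Acod1. Dgat2, an enzyme of triglyceride synthesis, followed with 3565 and 124 reads (-4.85, -5.14 to -4.61). Acod1, Gzma and Dgat2 each reached 1000 reads through WT alone. Their places describe an order and lend the ratios no support. Among all 17363 tested genes Acod1 stood at place 18 from the lowest. Most genes near it in that order had few reads, such as Ighv1-37 with 116 and 1, Nrn1 with 74 and 0, and Fam160a1 with 127 and 2. In these bulk libraries fewer cells that express a gene and less RNA per cell cannot be told apart. With an assumed spread between samples (biological coefficient of variation, BCV) of 0.4 in edgeR's exact test, the adjusted p-value of Acod1 was 0.000144, where 0.449% of all tested genes were called lower and 0.495% higher. With an assumed BCV of 0.2 it was 5.94e-22, where 3.09% were called lower and 3.33% higher.

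Of the other 20 macrophage and monocyte genes 14 were tested, with 0 called lower in Exon2KO and 1 (Lyz1) called higher. Among all tested genes 6.61% were called lower and 7.2% higher, so these counts were near that background. Together the 20 genes had 4379 reads in WT and 4038 in Exon2KO. That was 0.0269% (95% Wilson interval 0.0261 to 0.0277) and 0.0262% (0.0254 to 0.0270) of all reads. The log2 ratio of their summed reads was -0.14 (-0.21 to -0.08), or -0.04 without scaling factors. Cebpb supplied most of these reads, and without it the sums were 1179 and 1274 reads, a log2 ratio of 0.09 (-0.03 to 0.20), or -0.12 when scaled to the T cell genes. Per length, Acod1 stood 5.51-fold above Lyz2 in WT and at 0.119 of it in Exon2KO. It stood 9.92-fold above Cd68 in WT and at 0.189 of it in Exon2KO.

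Among the transcription factors, Cebpb had 3200 and 2764 reads, or a log2 ratio of -0.24 (-0.31 to -0.16). Most of its span overlaps Tmem189 on the opposite strand, which had 916 and 914 reads, and reads of the shared part cannot be told apart where strand was not used. Spi1, which encodes PU.1, the factor that directs cells into the myeloid lineage, had 51 and 40 reads (-0.36, -1.01 to 0.25). Neither ratio reached 2-fold, and that of Spi1 was not distinguishable from 0 at this depth.

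Of the phagocyte genes, Lyz2 had 317 reads in WT and 405 in Exon2KO (0.32, 0.11 to 0.54). Cd68 had 168 and 243 reads (0.50, 0.22 to 0.80), and Apoe had 333 and 267 (-0.34, -0.58 to -0.11). These 3 genes thus went in both directions, each by less than 2-fold. Lyz1 had 5 reads in WT and 27 in Exon2KO. It rose by 2.03 on the log2 scale (1.01 to 4.14), with an adjusted p-value of 0.000591 in the exact binomial test. Lyz1 reached the minimum of 10 reads through Exon2KO alone. Summed over both lysozyme genes, where the division of reads does not matter, there were 322 and 432 reads, a log2 ratio of 0.40 (0.19 to 0.61). Lyz1 is known mainly from Paneth cells, and the 8 epithelial genes above hold no marker of these cells. Of the 8 genes 5 were called higher in Exon2KO, or 2 with an assumed BCV of 0.4, while Epcam and Muc2 had lower counts. The part of epithelial cells in the count of Lyz1 was not tested. In edgeR's exact test the adjusted p-value of Lyz1 was 0.0368 with an assumed BCV of 0.2 and 0.664 with 0.4, which ends the call.

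The surface receptors had few reads. Cd14, the co-receptor for bacterial lipopolysaccharide, had 122 reads in WT and 116 in Exon2KO (-0.10, -0.48 to 0.28). Csf1r had 14 and 6 reads (-1.02, -2.92 to 0.22), a ratio past 2-fold that did not pass the test, at an adjusted p-value of 0.194 in the exact binomial test. Csf1r overlaps Hmgxb3 on the opposite strand, with 206 and 156 reads, so its few reads are uncertain. Among the Fc receptor genes, whose proteins bind antibody-coated particles, Fcgr3 had 43 and 34 reads, Fcgr4 had 7 and 16, and Fcgr1 had 5 and 7. Their intervals all included 0, and their summed reads were 55 and 57.

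The C1q genes encode the 3 chains of the first complement component, which resident macrophages make in quantity. C1qb had 52 reads in WT and 51 in Exon2KO, C1qc had 37 and 27, and C1qa had 21 and 19. Summed, the 3 chains had 110 and 97 reads, a log2 ratio of -0.21 (-0.62 to 0.20). No difference was detectable at this depth in any of the 3, and the ratio of C1qb turned from -0.053 to 0.049 without scaling factors.

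The remaining 6 macrophage genes had too few reads for the test. Itgam, which encodes CD11b, had 2 reads in WT and 7 in Exon2KO, uncertain counts because how reads shared with Gm49368, listed at 0, were assigned is not given in the sources used here. Mrc1, the mannose receptor CD206 of tissue macrophages, had 0 and 7 reads, at least 2.29-fold higher in Exon2KO when WT is set at 3 reads in its library. Adgre1 had 1 and 2 reads, and Trem2, a lipid receptor of macrophages, had 1 and 0. Cd163, the haemoglobin scavenger receptor, and Itgax, which encodes CD11c, had 0 reads in both. With no read seen, shares up to 1.84e-05% (WT) and 1.95e-05% (Exon2KO), which is 3 reads of each total, remain possible.

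**Figure D2:**
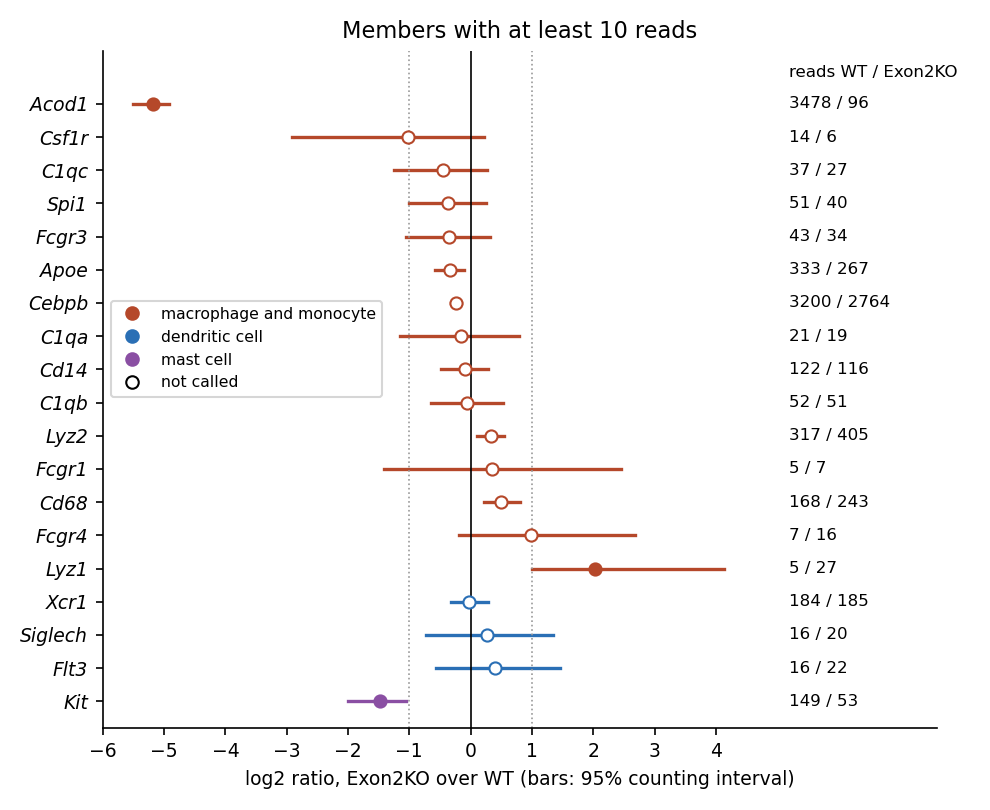
Log2 ratio of Exon2KO over WT for the 19 tested members, with 95% counting intervals and the reads of both libraries; filled points were called and dotted lines mark a 2-fold difference. Acod1 at -5.18, Kit at -1.48 and Lyz1 at 2.03 lie outside the 2-fold lines with intervals that exclude 0, while the interval of Csf1r at -1.02 includes 0.

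The 4 dendritic cell genes had 219 and 227 reads in sum, which gives a log2 ratio of 0.03 (-0.25 to 0.30), or -0.18 when scaled to the T cell genes. Most came from Xcr1, the receptor for the chemokine XCL1 on cross-presenting dendritic cells, with 184 and 185 reads (-0.02, -0.32 to 0.28). Clec9a, a receptor for dead cells on the same dendritic cells, had only 3 and 0 reads. Per length, Xcr1 was at 2.62 FPKM in WT and Clec9a at 0.0578, so the 2 markers of this cell type were present at very unequal levels. Flt3, the receptor for the growth factor of dendritic cell precursors, had 16 and 22 reads (0.39, -0.56 to 1.46). Siglech, a lectin of plasmacytoid dendritic cells, had 16 and 20 (0.27, -0.73 to 1.34). None of the 3 tested genes was called, and no difference was detectable at this depth.

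Granulocyte genes were close to absent, with 3 reads in WT and 14 in Exon2KO over all 4. S100a8 had 0 and 5 reads and S100a9 had 0 and 4. They encode the 2 subunits of calprotectin, the most abundant protein of the neutrophil cytosol. Ly6g, the surface marker of mouse neutrophils, had 1 and 3 reads, and Csf3r, the receptor for the neutrophil growth factor G-CSF, had 2 and 2. None of the 4 reached 10 reads. The log2 ratio of their summed reads, which like the other sums carries no prior count, was 2.196, with an interval from 0.35 to 4.64.

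Of the mast cell genes only Kit had reads enough for the test. Kit encodes the receptor for stem cell factor, which mast cells need, and which some innate lymphoid cells and the pacemaker cells of the gut muscle also carry. It had 149 reads in WT and 53 in Exon2KO and fell by 1.48 on the log2 scale (-1.999 to -1.06), or 2.86-fold without the prior count, with an adjusted p-value of 3.83e-11 in the exact binomial test. The genes that define mast cells were at or near 0 in both libraries. Cpa3, a granule carboxypeptidase, had 1 and 0 reads, and Fcer1a, the alpha chain of the IgE receptor, and Mcpt4, a granule chymase, had 0 in both. In edgeR's exact test the adjusted p-value of Kit was 0.0271 with an assumed BCV of 0.2 and 1 with 0.4, which ends the call.

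The authors' deposited table gives a comparison for 27 of the 33 members. It lists adjusted p-values below 0.05 for the same 3 genes, where 2.21% of its 22447 genes were lower and 2.37% higher at that threshold. The authors' deposited table has a log2 fold change of -5.20 for Acod1 (adjusted p-value 7.68e-22), -1.52 for Kit (0.035) and 2.38 for Lyz1 (0.0476). The test behind these values is not given in the sources used here.

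Genes around Acod1 were examined for a difference shared along the chromosome. The nearest gene before it, the lincRNA gene 4933432I03Rik, ends 13.2 kb away and had 33 reads in WT and 22 in Exon2KO (-0.57, -1.46 to 0.21). No gene of the table overlaps Acod1. Kctd12, before it, had 610 and 947 reads (0.61, 0.46 to 0.76). Mycbp2, a ubiquitin ligase gene after it, had 1768 and 1678 reads (-0.10, -0.20 to -0.0049). Gm34643, a lincRNA gene that ends 22.5 kb before Acod1 on the same strand, was called lower, with 27 and 4 reads (-2.29, -4.76 to -1.26). It lies inside the span of 4933432I03Rik on the opposite strand, so the reads of these 2 genes are uncertain. Kctd12, Mycbp2 and Gm34643 were singled out after their values were seen.

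**Figure D3:**
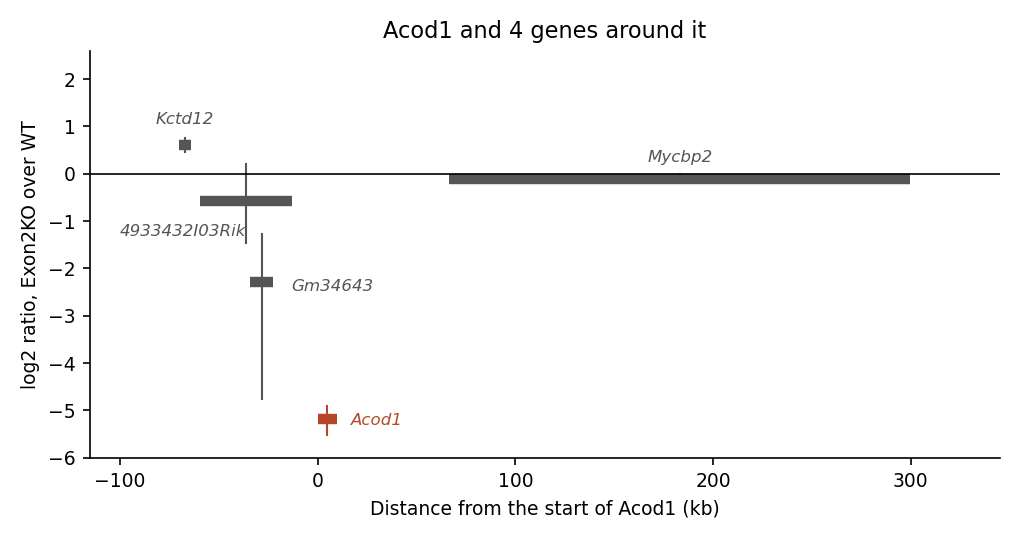
Log2 ratio of Exon2KO over WT for Acod1 and the 4 neighbouring genes named in the text, against distance from the start of Acod1 in kb; horizontal bars span each gene and vertical lines are 95% counting intervals. Acod1 lies at -5.18 and Gm34643 at -2.29, while Mycbp2 lies at -0.10 and Kctd12 at 0.61.

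Genes of itaconate and citrate metabolism, with a receptor and transcription factors that respond to itaconate, were taken as a list of 21 genes, Acod1 included. Of the 19 tested, Acod1 alone was called lower and 0 were called higher, and the median log2 ratio was -0.08, which became 0.03 without scaling factors, against 0.11 for all tested genes. Among all tested genes 6.61% were called lower and 7.2% higher. The genes with the most reads included Sdhb and Sdha, subunits of the succinate dehydrogenase that itaconate inhibits. Sdhb had 4541 reads in WT and 4583 in Exon2KO (-0.013, -0.073 to 0.046), and Sdha had 3702 and 3042 (-0.31, -0.38 to -0.24). Atf3, a stress-induced transcription factor, had 4039 and 2300 (-0.84, -0.91 to -0.77), short of 2-fold, though it was called lower when scaled to the T cell genes. The receptor gene Oxgr1 and the carrier gene Slc13a3 had 0 reads in both libraries.

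Genes that activated macrophages induce beside Acod1 formed a list of 20, many of which T cells also express. Of the 17 tested, 1 was called lower and 1 higher, with a median log2 ratio of -0.25. Both calls were kept with an assumed BCV of 0.2 and lost with 0.4. Ptgs2, the inducible prostaglandin synthase, fell from 27 reads in WT to 5 in Exon2KO (-2.07, -4.19 to -1.06). The cytokine gene Il6 rose from 11 reads to 94 (2.86, 2.16 to 4.12). The genes with the most reads were Tnfaip3, an NF-kB inhibitor, with 25425 and 18152 reads (-0.51), Irf1 with 15185 and 13048 (-0.25), and Nfkbiz with 8911 and 4693 (-0.95, -1.003 to -0.90). Scaled to the T cell genes, 3 of the list were called lower, with Nfkbiz and Cxcl2 beside Ptgs2. Nos2, a hallmark of inflammatory macrophages, had 3 and 0 reads, and Il12b had 0 in both. This list and the lists that follow were described by counts and medians only, beside the shares of 6.61% and 7.2% called among all tested genes.

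A list of 20 further macrophage genes had 16 tested, of which 3 were called lower and 0 higher, with a median of -0.26. All 3 calls were lost with an assumed BCV of 0.2 in edgeR's exact test. Lgmn, a lysosomal protease, fell from 598 reads to 296 (-1.04, -1.25 to -0.84), a call that was lost without scaling factors, while Lyve1 was also called when scaled to the T cell genes. Cybb, a subunit of the phagocyte NADPH oxidase, fell from 255 to 112 (-1.20, -1.55 to -0.89). Clec7a, which encodes the fungal receptor dectin-1, fell from 66 to 24 (-1.41, -2.23 to -0.79). The genes with the most reads were Ccr2, Ctss and Ly6c2, each also known from T cells. Ccr2 had 6942 reads in WT and 11145 in Exon2KO (0.66, 0.61 to 0.70), and the log2 ratios of Ctss and Ly6c2 were -0.08 and 0.12. Because Ccr2 held most of the reads, the summed reads of this list had a log2 ratio of 0.35, opposite in sign to the median. Vsig4 had 1 and 0 reads and Marco 0 in both.

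Of 17 further dendritic cell and antigen presentation genes 12 were tested, 4 were called lower and 0 higher, and the median was -0.51. With an assumed BCV of 0.2 Itgae and Zbtb46 kept their calls while Cd74 and Cd209a lost theirs, and with 0.4 none was left. Itgae, which encodes CD103 and is also carried by mucosal T cells, fell from 1926 reads to 312 (-2.65, -2.83 to -2.48). Zbtb46, a transcription factor of classical dendritic cells, fell from 548 to 140 (-1.98, -2.27 to -1.73). Cd74, the chaperone of MHC class II molecules, fell from 11586 to 5335 (-1.15, -1.19 to -1.10). Cd209a, a lectin of dendritic cells, fell from 20 to 7 (-1.31, -3.03 to -0.24), a call that was lost without scaling factors. It reached the minimum of 10 reads through WT alone. The class II gene H2-Ab1, also among the 3 genes with the most reads, had 1838 and 1145 reads (-0.71, -0.82 to -0.60), short of 2-fold. The class II genes and Cd74 are also expressed by B cells, whose marker Ms4a1 fell from 47 reads to 10. Of the same list Cd79a and Jchain had log2 ratios of -0.36 and -0.11, short of 2-fold, and Sdc1 rose from 510 reads to 1213. With an assumed BCV of 0.2 Ms4a1 kept its call and Sdc1 lost it, and with 0.4 both were lost. The part of B cells in these ratios was not tested. Batf3, the factor that the Xcr1 type of dendritic cell requires, had 7 reads in WT and 0 in Exon2KO, too few for the test and at least 2.38-fold lower when Exon2KO is set at 3 reads.

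Of 14 further granulocyte genes 6 were tested, with 3 called lower, 0 higher and a median of -0.98, or -1.03 when no prior count is added and Ltf is set at 3 reads in Exon2KO. With an assumed BCV of 0.2 the calls of Ccr3 and Ltf were kept and that of Lcn2 was lost, and with 0.4 none was left. Ccr3, the eotaxin receptor of eosinophils, fell from 339 reads to 38 (-3.12, -3.71 to -2.70). Lcn2, which encodes the iron-binding lipocalin of neutrophils and epithelium, fell from 109 to 52 (-1.07, -1.60 to -0.61), a call lost without scaling factors. Prg2, an eosinophil granule protein, was also called lower when scaled to the T cell genes. Ltf, which encodes lactoferrin, had 14 and 0 reads, at least 4.75-fold lower when Exon2KO is set at 3 reads, and reached the minimum of 10 reads through WT alone. Mmp9, a matrix protease with the most reads of the list, had 987 and 1012 (0.0093, -0.12 to 0.14). The eosinophil genes Siglecf and Epx and the neutrophil genes Cxcr2, Retnlg, Camp and Mmp8 had 0 reads in both libraries.

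Of 12 further mast cell and basophil genes 3 were tested and 8 had 0 reads in both libraries, among them the proteases Mcpt1, Mcpt2 and Tpsb2 and the IgE receptor chain Ms4a2. Cd200r3, a receptor of mast cells and basophils, had 10 reads in WT and 0 in Exon2KO, was called lower, having likewise reached the minimum through WT alone, and was at least 3.40-fold lower with Exon2KO set at 3 reads, a call lost with an assumed BCV of 0.2 (adjusted p-value 0.0583 in edgeR's exact test). Hdc, the enzyme that makes histamine, had 280 and 214 reads (-0.41, -0.68 to -0.15). Gata2, a transcription factor of mast cells and progenitors, had 3 and 12, with an interval of the log2 ratio from 0.08 to 4.44.

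**Figure D4:**
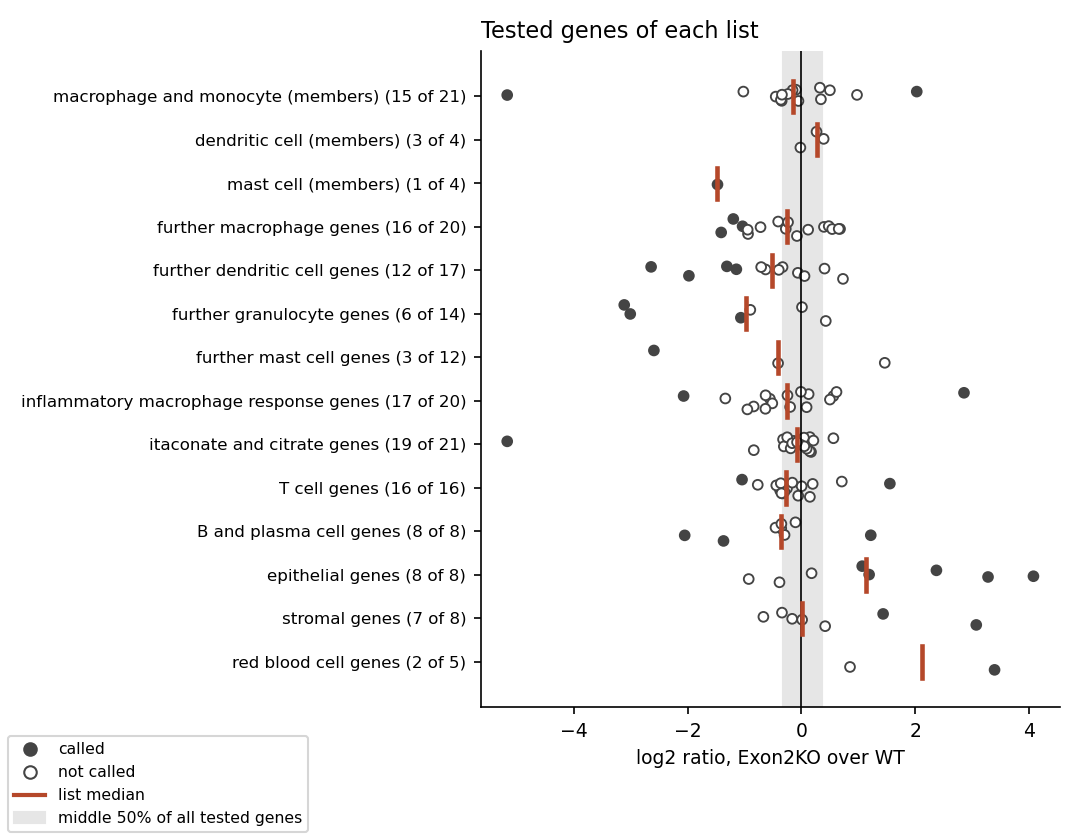
Log2 ratio of Exon2KO over WT for the tested genes of each list (number tested of number listed), with called genes filled, list medians in red and the middle 50% of all tested genes shaded; the granulocyte members are absent because none had 10 reads. Acod1, at -5.18, stands apart from the other macrophage members, whose ratios lie between -1.02 and 2.03, and appears again among the itaconate genes.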

How the data were processed

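RNA sequencing of 1 WT and 1 Exon2KO library was deposited as 1 table. It holds, as deposited by the authors, unnormalized counts, FPKM values, a scaled count signal (not used here), and log2 fold changes with p-values. The submitters' processing notes name HISAT2 2.0.5, StringTie 1.3.3b, featureCounts 1.5.0-p3, DESeq2 1.16.1 and mm10 (GRCm38), without their options. Whether strand was used is not given in the sources used here.

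Counts were scaled with TMM (edgeR 4.0.16, R 4.3.3; factors 0.964 for WT and 1.04 for Exon2KO). Log2 ratios of single genes compare Exon2KO to WT after adding a prior count of 2; ratios of summed reads and folds have none. Folds against a library without reads set it at 3 reads and are not 95% limits. Exact (Clopper-Pearson) 95% limits of the Exon2KO share of a gene's reads, with no prior count, gave their intervals. A library without a replicate leaves edgeR's quasi-likelihood test no spread, so genes with 10 or more reads in sum had a 2-sided exact binomial test (smaller tail doubled), Benjamini-Hochberg adjusted over 17363 genes and tested on simulated data. Python 3.11.15 with scipy 1.17.1 was used.

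Members and lists were chosen with earlier results of these data known. The text names every member, the genes of other lists that were called or had most reads, and neighbours of Acod1, some of which are not reported here. List genes named for few or no reads were chosen after their values were seen. Alternatives were other scalings, read minimums, folds, prior counts and assumed spreads.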

Additional observations from a re-analysis of the deposited data

How the results depend on the processing

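Acod1 was called lower, with log2 ratios from -5.38 (scaled to the T cell genes) to -5.07 (without scaling factors), under the 5 other scalings, 2 other read minimums, 2 other prior counts and 2 assumed spreads. The 2 members called lower became 1 (Acod1) with a fold threshold of 4 and with an assumed BCV of 0.4. The 1 member called higher, Lyz1, became 0 with at least 50 reads over both libraries, which leaves that gene untested, and 0 with an assumed BCV of 0.4. With that BCV 78 genes were called lower and 86 higher among all tested genes, against 1148 and 1251. Scaling to the T cell genes gave 1546 lower and 985 higher, and total counts without scaling factors 983 and 1481; with these, the median over all tested genes lay at -0.19 and 0.11. A minimum of 50 reads gave 685 lower and 649 higher, a fold of 4 gave 408 and 499, a fold of 1.5 gave 1847 and 1828, and a BCV of 0.2 gave 536 and 579.

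The summed reads of the macrophage members other than Acod1 had a log2 ratio of -0.14, which moved to -0.038 without scaling factors, to -0.34 when scaled to the T cell genes, and to 0.085 without Cebpb. Those of the dendritic cell, granulocyte and mast cell members stayed within their counting intervals wherever they could be computed; the mast cell sum had no ratio without Kit. Of 191 values recomputed for the 18 other tested members, 186 kept direction and call. Without scaling factors Cd14 turned to 0.0062, C1qb to 0.049 and Xcr1 to 0.086, and Kit and Lyz1 lost their calls with an assumed BCV of 0.4. No paired analysis was possible because WT and Exon2KO have 1 library each, and for that reason no library could be left out. Depth limits the 14 members below 10 reads to their counts.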
